A study of Mus musculus with 32 samples.

Results

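Vpreb1, Vpreb2, Vpreb3, Igll1, Rag1, Rag2, Dntt and Il7r are genes of B cell precursors and of antigen receptor gene assembly. These 8 genes were taken by symbol from the 55359 genes counted in mouse jaw bone and gingiva, and all 8 had a row in both count tables. All mice were 9-week-old male C57BL/6J animals of wild type genotype. The Co group was untreated. Li mice had a silk ligature tied round the maxillary left second molar, which gathers plaque and inflames the gum. In Tra mice composite resin was added to the occlusal face of the same molar, which overloads it, and LiTra mice had both. Each group had 4 RNA-seq libraries from bone and 4 from gingiva, 32 in all. The labels give no interval between treatment and sampling and do not say that the 4 libraries of a group came from 4 animals, so the p-values rest on how far these libraries differ, which may be technical.

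B cells form in bone marrow from progenitors that need interleukin 7, whose signal is taken up by the receptor chain encoded by Il7r. In pro-B cells the Rag1 and Rag2 proteins together cut antigen receptor genes so that their segments can be joined, and Dntt (terminal deoxynucleotidyl transferase, TdT) adds bases at the junctions. A pre-B cell that has made a heavy chain pairs it with a surrogate light chain built from Vpreb1 or Vpreb2 and Igll1 (lambda 5) and tests it as the pre-B cell receptor. Vpreb3 binds immunoglobulin chains inside precursor B cells. Mature B cells have switched most of these genes off, while T cells and innate lymphoid cells also carry Il7r.

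Counts below are given as CPM, each count as a share of the library total after TMM scaling (which corrects that total for a few very abundant transcripts), times 1e6. Library totals ran from 38163979 to 70793037 counts in bone and from 36913075 to 50740393 in gingiva. The 7 bone markers (Bglap, Ibsp, Dmp1, Sost, Phex, Alpl and Col1a1) summed to between 6200.4 and 20179 CPM in bone, and the 7 markers of gingival epithelium to between 40236 and 81289 CPM in gingiva. In bone the epithelial markers summed to between 18.5 and 6008 CPM. The 10 most abundant genes took 51.1% of the counts in bone Co 3, 62.9% in Tra 3 and 53.6% in LiTra 1, against 7.78 to 29.3% in the other bone libraries. Some results in bone are therefore also given without those 3 libraries. The first gingiva Li library carried marrow transcripts: Elane, made by neutrophil precursors, stood at 44.2 CPM there, while the gingiva Co group averaged 0.170 CPM.

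Vpreb1 and Vpreb2 are near-identical copies, which bears on how far their counts can be told apart. Their transcripts (GENCODE M21) matched at 739 of 759 aligned bases, or 97.4%, with an identical run of 196 bases. The sequence before their transcription starts is also shared. Both stretches below are from RefSeq, build GRCm38.p6, chr16:16869256-16869361 on the minus strand for Vpreb1 and chr16:17980315-17980420 on the plus strand for Vpreb2, ending 1 and 145 bases before the annotated starts. They are written 5′ to 3′, and capitals mark the 2 of 106 bases that differ.
Vpreb1: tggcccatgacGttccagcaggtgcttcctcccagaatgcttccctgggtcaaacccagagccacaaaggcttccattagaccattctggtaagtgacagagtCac
Vpreb2: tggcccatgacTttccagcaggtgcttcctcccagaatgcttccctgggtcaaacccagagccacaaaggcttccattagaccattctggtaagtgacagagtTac
A read from either gene that misses all differing bases cannot be assigned by sequence, so the split of counts between Vpreb1 and Vpreb2 is uncertain.

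The 250 bases before the start of each of the 8 genes were searched on both strands for binding motifs of B lineage factors. The E box CAGGTG, bound by the factor E2A, was present before 4 of 8 genes (Vpreb1, Vpreb2, Igll1 and Rag1) and before 17.2% of 32841 promoters of the same length. The Vpreb1 and Vpreb2 matches are 1 site in the duplicated stretch shown above and are not separate occurrences. The Ikaros motif TGGGAA was found before 2 of the 8 genes (Vpreb2 and Rag1) and 21.6% of all promoters. The octamer ATTTGCAT, bound by Oct factors, was found before Vpreb3 alone among the 8 and before 1.6% of all promoters. The palindromic motif of the factor EBF1 was found before 0 of the 8 and 0.78% of all promoters. The 150 bases before Igll1 (chr16:16863986-16864135, minus strand), Vpreb3 (chr10:75948150-75948299, plus strand) and Rag1 (chr2:101649533-101649682, minus strand) are shown with motif matches in capitals, 5′ to 3′, from the same build.
Igll1: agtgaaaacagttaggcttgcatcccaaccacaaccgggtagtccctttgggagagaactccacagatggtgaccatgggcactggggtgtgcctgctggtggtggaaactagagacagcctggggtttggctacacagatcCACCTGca
Vpreb3: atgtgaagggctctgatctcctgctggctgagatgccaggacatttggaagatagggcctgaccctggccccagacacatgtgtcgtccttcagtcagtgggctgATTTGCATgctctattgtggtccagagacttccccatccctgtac
Rag1: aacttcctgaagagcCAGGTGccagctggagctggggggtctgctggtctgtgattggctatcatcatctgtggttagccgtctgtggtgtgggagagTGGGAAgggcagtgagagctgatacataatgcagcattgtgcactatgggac
In Igll1 the E box lies on the opposite strand and reads CACCTG. A match describes the letters only, and binding was not measured here.

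In untreated bone all 8 genes were detected. Per kilobase of exon, the scale on which genes can be compared, Vpreb3 led at 18.1 ± 4.13 CPM per kilobase (SD, n = 4), followed by Il7r at 5.28 ± 1.59 and Rag1 at 3.67 ± 1.24. Dntt at 2.86 ± 0.563, Vpreb1 at 2.85 ± 0.280 and Igll1 at 2.74 ± 0.596 CPM per kilobase lay within 1 SD of each other. The second recombinase gene, Rag2, stood lower at 0.848 ± 0.101, and Vpreb2 at 0.450 ± 0.336 CPM per kilobase, with the split from Vpreb1 uncertain. In untreated gingiva Vpreb2, Vpreb3 and Rag2 had no count in any of the 4 libraries, and the other 4 precursor genes (Vpreb1, Igll1, Rag1 and Dntt) averaged between 0.0240 and 0.240 CPM. Il7r was the exception, at 3.94 ± 0.833 CPM. Ptcra, which marks thymocytes, the other cells that use Rag1, Rag2 and Dntt, had at most 4 counts summed over the libraries of any bone group.

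Between untreated bone and untreated gingiva, 8 of 8 genes were higher in bone (edgeR quasi-likelihood test, Benjamini-Hochberg adjusted p under 0.05), where 27.2% of all genes tested were higher in bone. Il7r was higher by 2.64 ± 0.49 log2 (SE, adjusted p = 5.07e-05) and Vpreb1 by 3.80 ± 0.98 (adjusted p = 0.0019). Rag1 was higher by 7.46 ± 1.48 log2 (adjusted p = 0.000131) and Dntt by 7.90 ± 1.39 (adjusted p = 2.89e-05). For genes without a count in gingiva only a bound can be given, set against 3 counts over the group. On that bound Vpreb3 was at least 841-fold higher, Rag2 at least 157-fold higher and Vpreb2 at least 18.5-fold higher in bone. The precursor genes other than Il7r were thus measured in bone, and in gingiva Il7r carried most of the summed level.

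**Figure D1:**
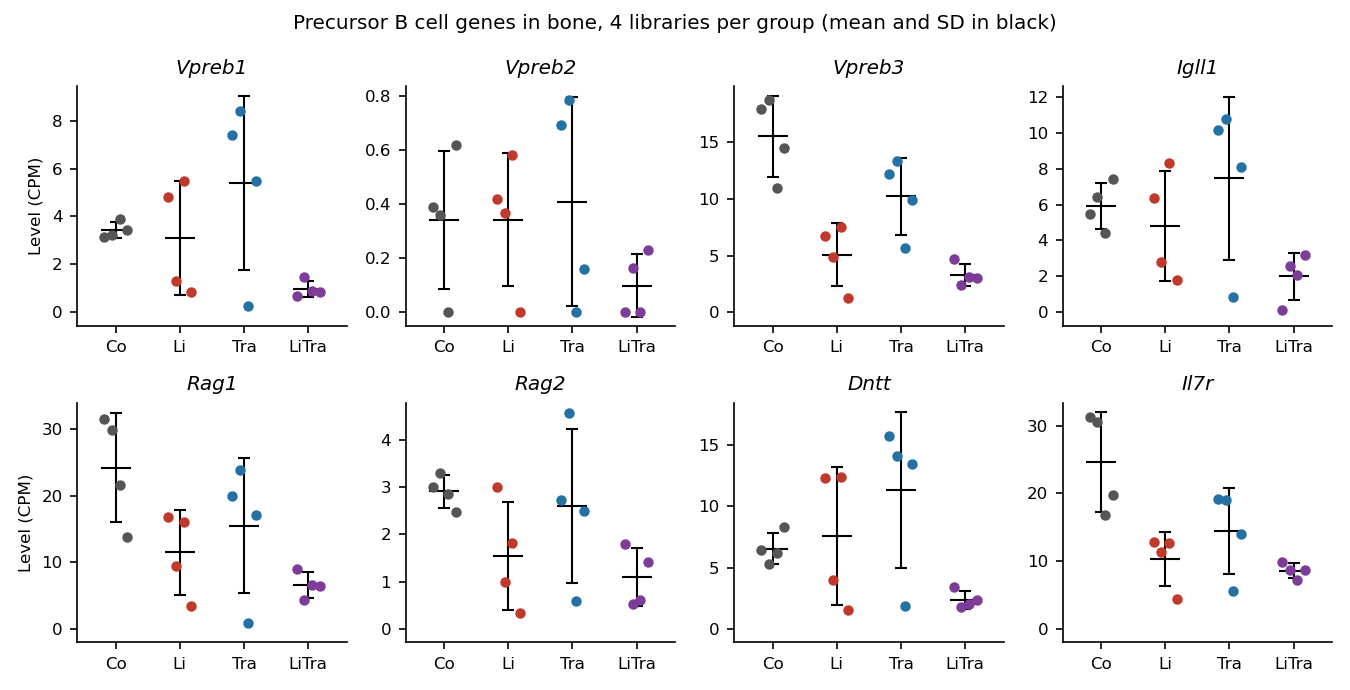
Levels of the 8 precursor B cell genes in bone in CPM (linear axes), by group, with 1 point per library and the mean and SD in black. LiTra has the lowest group mean for every gene, while Tra 3 and Li 4 hold the lowest level of their groups for every gene (for Vpreb2 at 0 in both).

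In bone with both ligature and overload the 8 genes were all lower than in untreated bone, and Vpreb3 and Il7r fell past the test. The count was 2 of 8 lower and 0 higher, where 8.64% of all 21205 genes tested in bone were lower. The median change of the 8 genes was -1.64 log2, beside -0.01 for all genes tested. For 7 of 8 genes every LiTra library lay below every Co library, as it did for 13.9% of all genes tested. Only Vpreb2, with 2 LiTra libraries and 1 Co library at 0, overlapped. In bulk tissue fewer precursor cells and less RNA per cell cannot be told apart. The call of Vpreb3 and Il7r was lost when library totals replaced TMM scaling (adjusted p = 0.111 and 0.357), a setting that called 12 genes in all against 3589 with TMM, and it held without any single bone library.

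Vpreb3 gave the largest change of the 8 in LiTra against Co. It measured 17.9, 18.7, 11.0 and 14.5 CPM in the Co libraries and 4.73, 2.42, 3.09 and 3.02 CPM in the LiTra libraries, so that the groups did not overlap. In Li bone it measured 6.70, 4.93, 7.53 and 1.27 CPM, also below every Co library. Tra libraries held 12.2, 13.4, 5.64 and 9.88 CPM, overlapping with Co. Vpreb3 fell by 2.23 ± 0.44 on the log2 scale in LiTra against Co (edgeR, adjusted p = 0.0036), and its change in Li against Co was -1.61 ± 0.43 (adjusted p = 0.056). Against Tra, LiTra was lower by -1.63 ± 0.43 log2 (adjusted p = 0.041).

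The genes of the surrogate light chain, Vpreb1 and Igll1, kept to one pattern. Vpreb1 measured 3.13, 3.24, 3.89 and 3.43 CPM in Co and 0.675, 1.45, 0.902 and 0.848 CPM in LiTra. In Tra bone it measured 7.39, 8.40, 0.275 and 5.49 CPM, so that 3 Tra libraries lay above every Co library and Tra 3 below all of them. Li bone was split too, with 4.81 and 5.46 CPM in Li 1 and Li 3 and 1.30 and 0.831 CPM in Li 2 and Li 4. The Vpreb1 change in LiTra against Co was -1.81 ± 0.74 log2 and did not pass (edgeR, adjusted p = 0.114). Igll1 measured 5.45, 6.39, 4.41 and 7.42 CPM in Co and 0.135, 2.60, 2.09 and 3.18 CPM in LiTra, a change of -1.56 ± 0.78 (adjusted p = 0.198). Its Tra libraries stood at 10.1, 10.8, 0.872 and 8.08 CPM, again 3 above every Co library and Tra 3 below. Vpreb2 had 0 to 42 counts in a bone library, and its groups overlapped in every comparison.

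Rag1 and Rag2, which together form the recombinase, were both lower in LiTra bone without passing the test. Rag1 measured 31.6, 29.9, 21.5 and 13.9 CPM in Co and 9.05, 4.33, 6.52 and 6.36 CPM in LiTra, a change of -1.89 ± 0.69 log2 (edgeR, adjusted p = 0.077). Li bone held 16.9, 9.51, 16.1 and 3.38 CPM, and Tra bone 20.02, 23.9, 0.826 and 17.1 CPM, both overlapping with Co. Rag2 measured 3.001, 3.30, 2.85 and 2.47 CPM in Co and 1.79, 0.534, 0.615 and 1.41 CPM in LiTra, a change of -1.42 ± 0.64 (adjusted p = 0.150). Without the 3 libraries dominated by a few genes, the Rag1 change was -2.14 ± 0.50 (adjusted p = 0.010) and passed, and that of Rag2 was -1.78 ± 0.65 (adjusted p = 0.069). Both genes lie inside a longer annotated locus (B230118H07Rik), and the use of strand in counting is not given in the sources used here.

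Dntt, the enzyme that adds bases at the junctions, was spread widely between the treated groups. It measured 6.43, 5.27, 6.15 and 8.34 CPM in Co, 15.8, 14.1, 1.88 and 13.5 CPM in Tra, and 3.38, 1.77, 1.99 and 2.35 CPM in LiTra. Apart from Tra 3 every Tra library was above every Co library, and all LiTra libraries were below Co. Its change was 0.79 ± 0.61 log2 in Tra against Co (edgeR, adjusted p = 0.71), -1.47 ± 0.62 in LiTra against Co (adjusted p = 0.125) and -2.26 ± 0.64 in LiTra against Tra (adjusted p = 0.053). Li bone held 12.3, 4.02, 12.4 and 1.56 CPM, on both sides of Co.

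Il7r, the receptor chain, was lower in both ligature groups. It measured 31.3, 30.6, 16.8 and 19.7 CPM in Co, 12.8, 11.3, 12.6 and 4.35 CPM in Li, and 9.93, 8.64, 7.17 and 8.68 CPM in LiTra. Neither ligature group overlapped with Co. Il7r fell by 1.52 ± 0.38 on the log2 scale in LiTra against Co (edgeR, adjusted p = 0.014), and its change in Li against Co was -1.26 ± 0.38 (adjusted p = 0.085). In Tra bone it measured 19.2, 19.0, 5.64 and 14.1 CPM, with a change of -0.76 ± 0.37 (adjusted p = 0.54).

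**Figure D2:**
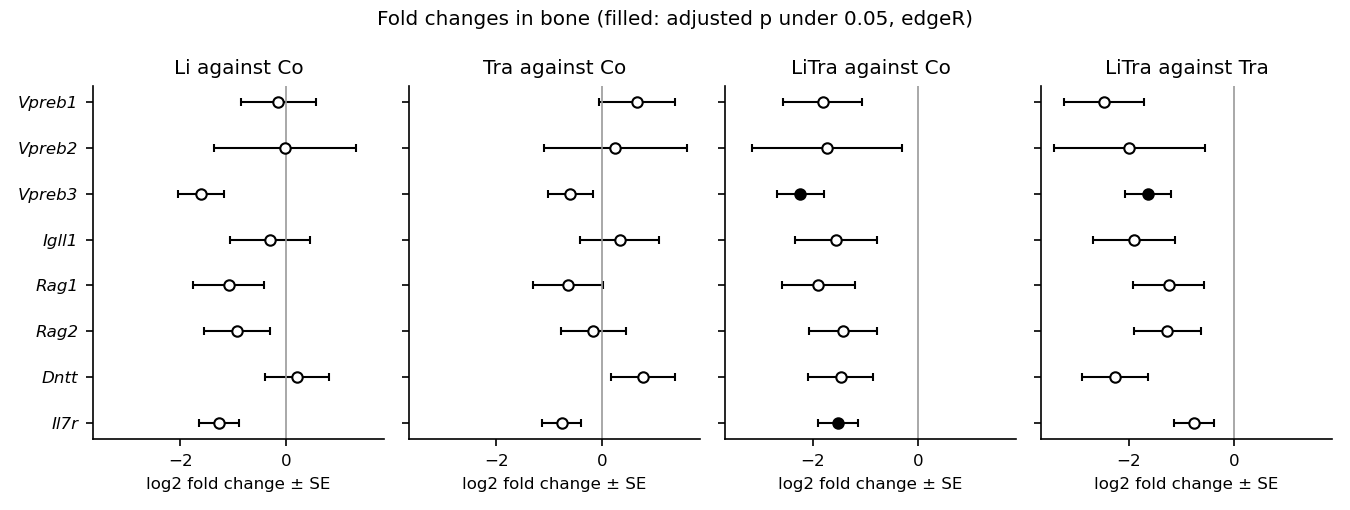
Log2 fold changes of the 8 genes in bone with their standard errors, in 4 comparisons of 4 against 4 libraries; filled points passed an adjusted p of 0.05. All 8 points lie left of 0 in LiTra against Co and in LiTra against Tra, while in Tra against Co they lie on both sides.

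For the ligature alone, 0 of 8 genes passed in bone, where 3.51% of all genes tested did. The changes of 7 of 8 genes were negative, with a median of -0.61 log2, and Vpreb3 and Il7r lay lowest. They were also the 2 of 8 genes without overlap between Li and Co, a pattern of lower libraries that 5.57% of all genes tested showed. At an unadjusted p under 0.05, 3624 genes were past the threshold in this comparison, Vpreb3 and Il7r among them. DESeq2 called both genes lower, as did limma-voom, run throughout with quality weights that count libraries standing apart for less. So did edgeR without Tra 3 alone (Vpreb3 -1.62 ± 0.41, adjusted p = 0.037, and Il7r -1.27 ± 0.30, adjusted p = 0.027). Most alternatives did not call them: of 27 tried, 22 left Vpreb3 and 23 left Il7r uncalled. Among these were library totals and, for each gene, 15 of 16 fits that left out 1 bone library.

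Overload alone moved 0 of 8 genes past the test in bone, and 0% of all genes tested passed (edgeR, lowest adjusted p over all genes 0.0776). At an unadjusted p under 0.05 there were 2023 genes, while DESeq2 called 160 and limma-voom 0. The 8 changes split into 4 positive and 4 negative, from -0.76 to 0.79 log2, and their median was 0.05. Vpreb1, Vpreb2, Igll1 and Dntt were positive, and Vpreb3, Rag1, Rag2 and Il7r negative. The changes of Vpreb1, Vpreb2, Igll1, Rag1 and Rag2 were smaller than their standard errors. On leaving out 1 bone library Rag2 ran from -0.58 to 0.16 log2 and Vpreb2 from -0.25 to 0.66, so the split is not fixed. All 8 had their lowest or joint lowest Tra value in Tra 3, whose summed level was 15.7 CPM beside 70.7 to 95.0 CPM in the other Tra libraries. Tra 3 was also the library with the largest share of counts in its 10 leading genes, and the part this had in its low values was not tested.

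Adding overload to the ligature gave 0 of 8 calls in bone (LiTra against Li), where 0% of all genes tested passed by edgeR, 1352 were under an unadjusted p of 0.05, and DESeq2 called 106 genes and limma-voom 0. All 8 changes were negative, with a median of -1.03 log2 and the lowest at -1.71 ± 1.41 for Vpreb2, -1.68 ± 0.62 for Dntt (adjusted p = 0.67) and -1.67 ± 0.74 for Vpreb1 (adjusted p = 0.77). Adding the ligature to overload (LiTra against Tra) gave 1 call of 8, Vpreb3, where 2.49% of all genes tested were lower. All 8 changes were negative here too, with a median of -1.76 log2, and Vpreb3 was the 1 gene of 8 with every LiTra library below every Tra library, as were 5.15% of all genes tested. Without Tra 3 the count was 4 (Vpreb1, Vpreb3, Rag1 and Dntt), with Vpreb1 at -2.86 ± 0.53 (adjusted p = 0.0056) and Dntt at -2.60 ± 0.53 (adjusted p = 0.0086). Tra 3 held the lowest or joint lowest Tra value of all 8 genes, so leaving it out raises their Tra level. The share of 2.49% belongs to the fit with all libraries, and the share without Tra 3 is not given here. The call of Vpreb3 was lost in 11 of 16 fits that left out 1 bone library.

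Whether the ligature effect differed with overload was tested by the interaction, (LiTra minus Tra) minus (Li minus Co). It passed for 0 of 8 genes and for 0% of all genes tested in bone. At an unadjusted p under 0.05 there were 644 genes, and DESeq2 called 8 and limma-voom 0. Dntt had the lowest value at -2.47 ± 0.87 log2 (adjusted p = 1.0) and Vpreb1 followed at -2.33 ± 1.03. For Vpreb3 and Il7r, the genes called in LiTra against Co, the values were -0.03 ± 0.59 and 0.51 ± 0.53.

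Other genes of the same cells and pathway were described by lists drawn up for this tissue. Over all genes tested, 16.9% were called in bone LiTra against Co and 22.9% in gingiva LiTra against Co, in either direction, and the counts below stand beside those shares. In LiTra against Co, 13 of 14 early B lineage transcription factors fell (median -1.92 log2), among them Pax5, which commits cells to the B lineage, at -3.24 ± 0.53 (adjusted p = 0.0012). Of the pre-B receptor and its signalling, 8 of 12 fell, including the signalling chains Cd79a at -3.01 ± 0.50 and Cd79b at -2.81 ± 0.47 (both adjusted p = 0.0014) and the heavy chain gene Ighm at -2.48 ± 0.44 (adjusted p = 0.0018). Of 12 further pre-B and pro-B markers, 4 fell, among them Spn, Cd24a and Lef1, and the list's median was -0.05. Markers of mature B cells fell in 11 of 13 cases, with a median of -3.16 log2. Cd22, an inhibitory receptor, changed by -3.27 ± 0.47 (adjusted p = 0.00058) and Ms4a1, which encodes CD20, by -3.25 ± 0.59 (adjusted p = 0.0022).

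Among the 12 genes of the interleukin 7 axis, 3 fell and 1 rose in LiTra against Co. The transcription factors downstream of the receptor, Stat5a at -0.61 ± 0.15 and Stat5b at -0.72 ± 0.11, fell (adjusted p = 0.016 and 0.00091), as did the survival gene Bcl2 at -0.85 ± 0.18 (adjusted p = 0.0055). Socs2, an inhibitor of cytokine signalling, rose by 0.63 ± 0.12 (adjusted p = 0.0026). Il7 itself, the ligand, changed by -0.99 ± 0.37 (adjusted p = 0.085). Of 10 genes listed as marrow niche factors for B lineage cells, 6 fell and 1 rose. Cxcl12, the chemokine of the niche, fell by 1.69 ± 0.30 and Tnfsf13b (BAFF) by 2.07 ± 0.35 on the log2 scale (adjusted p = 0.0019 and 0.0014), while Igf1 rose by 0.95 ± 0.23 (adjusted p = 0.012). On a list of 13 genes for recombination breaks and their joining, 3 fell, and the list's median was -0.02. The 3 were Polm, a polymerase related to Dntt, at -0.79 ± 0.13, Paxx at -0.44 ± 0.11 and Hmgb2 at -1.17 ± 0.35.

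Markers of other cells moved in the same comparison. All 13 erythroid genes tested fell (median -3.02 log2), 5 of 11 genes of marrow neutrophil precursors fell (median -1.65) and 10 of 16 T cell markers fell (median -1.78). The erythroid list summed to between 23018.5 and 45758 CPM in Co bone and between 1737 and 5995 CPM in LiTra bone. Plasma cell markers were mixed, with 3 higher and 2 lower of 8. The part that less marrow in the LiTra samples had in the lower precursor genes was not tested.

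**Figure D3:**
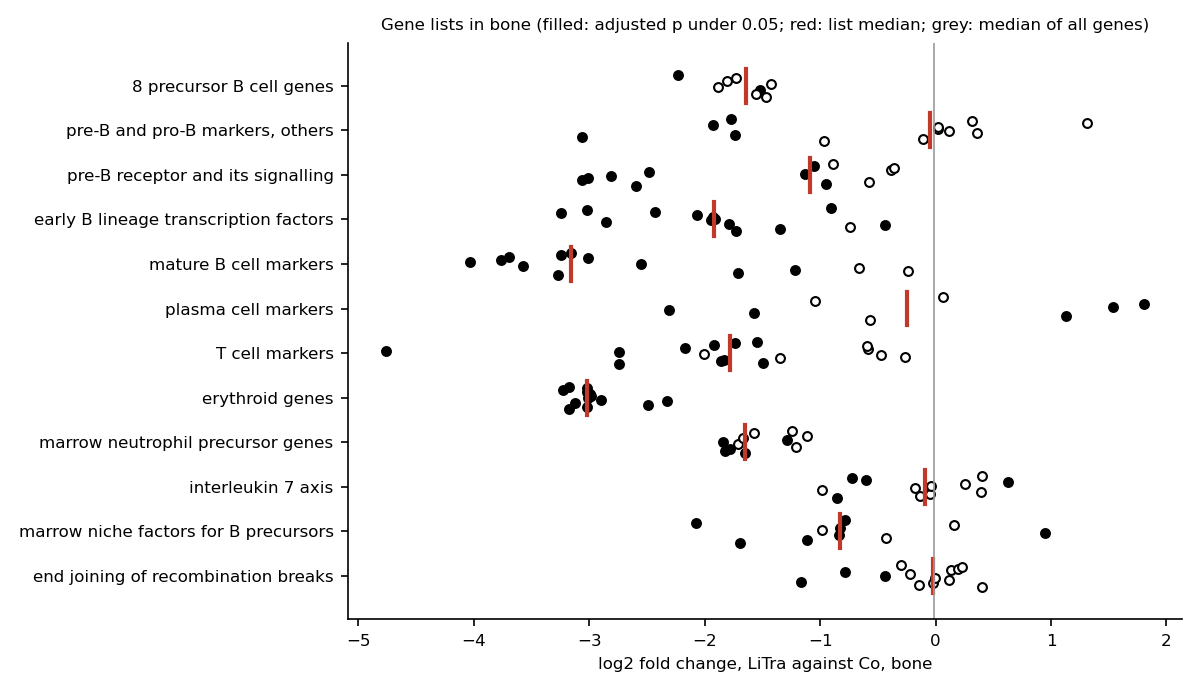
Log2 fold changes in LiTra against Co bone for the tested genes of 12 lists, 1 point per gene; filled points passed an adjusted p of 0.05, red bars are list medians and the grey line is the median of all genes. The 8 precursor genes lie between -2.23 and -1.42, mature B cell markers and erythroid genes further left, and the interleukin 7 axis and end joining lists around 0.

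Mature B cell markers had lower medians than the 8 precursor genes in all 3 comparisons with Co, and the difference between the lists was not tested. For Li against Co, 7 of 13 mature markers fell with a median of -2.08 log2, beside 0 of 8 and -0.61 for the precursor genes. For Tra against Co, 0 of 13 mature markers passed, with a median of -1.40 beside 0.05, and for LiTra against Co the medians were -3.16 and -1.64.

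The ratio of a precursor gene to the mature marker Ms4a1 was also taken in each bone library, as the difference of log2(CPM + 0.5). It was higher than in Co for most genes of the whole table, a comparison over all genes chosen after seeing the data, and Ms4a1 itself was lower in each treated group. All treated libraries lay above all Co libraries for 88.2% of the genes tested in Li, 80.2% in Tra and 93.9% in LiTra, and for 6 of the 8 precursor genes in each. The median difference over all genes was 2.37, 1.88 and 3.22 log2. Vpreb3 differed by 0.69, 1.26 and 1.15 log2, Il7r by 1.10, 1.04 and 1.80, and Dntt by 2.23, 2.31 and 1.92. In LiTra all 8 values were below the median of all genes, and the ratios are not read as a result about these genes. Of 20 exact two-sided permutation tests on Igll1, Vpreb1, Rag1 and Dntt over 5 comparisons, 10 reached the smallest possible p of 0.0286 (adjusted 0.0571) and 0 passed correction.

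The 8 genes varied together across the bone libraries: Pearson's r of log2 CPM over 16 libraries ran from 0.59 to 0.93 over the 28 pairs, with a median of 0.75. The libraries differ in group, marrow content and depth, which can bear on all 8 genes at once, so this is a description. Among genes with a mean log2 CPM of at least 0, those most like Igll1 in bone were Oip5 (r = 0.945), Plcl2 (0.924), Nemp1 (0.924), Pnp2 (0.921) and Fignl1 (0.917). Most like Il7r in bone were Fam129c (r = 0.951), the B cell kinase gene Blk (0.943), E330020D12Rik (0.935), the B cell coactivator gene Pou2af1 (0.935) and Jakmip1 (0.927). In gingiva the genes most like Il7r were March1 (r = 0.949), Bcl2a1b (0.948), Jaml (0.931), Havcr2 (0.930) and Sla (0.929). None of the 5 gingiva genes was among the 5 for bone.

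In gingiva only Il7r, Vpreb1 and Dntt passed the filter on low counts, and Il7r rose with ligature and overload together. It measured 2.89, 4.17, 3.81 and 4.89 CPM in Co and 11.9, 8.42, 16.1 and 11.6 CPM in LiTra, without overlap. Li gingiva was widely spread, at 7.19, 15.8, 2.05 and 2.91 CPM, and Tra gingiva held 4.38, 7.50, 3.24 and 3.56 CPM. Il7r rose by 1.61 ± 0.50 log2 in LiTra against Co (edgeR, adjusted p = 0.031), 1 call of the 3 genes tested, where 11.4% of all genes tested in gingiva were higher. The call was lost in 7 of 16 fits that left out 1 gingiva library: each Co library, LiTra 1, LiTra 3 or LiTra 4, with adjusted p up to 0.086. LiTra against Tra differed by 1.36 ± 0.49 log2 without overlap (adjusted p = 0.068), and 0 of 3 genes were called there, where 18.8% of all genes tested were. The share of all gingiva genes without overlap was not computed, so the lack of overlap is a description only.

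Il7r is also made by T cells and innate lymphoid cells, and the surrogate light chain genes were near or at 0 in LiTra gingiva. Vpreb2, Vpreb3 and Igll1 had no count in any LiTra gingiva library, while Vpreb1 had 0, 21, 3 and 9 counts. Rag1 had 7, 3, 0 and 0 counts, and Rag2 4 counts in LiTra 1 alone. Dntt went the other way, with 0, 0, 4 and 0 counts in Co and 0, 6, 22 and 28 in LiTra gingiva. Of the mature B cell markers Ms4a1 had 0 counts there, while the list of 13 summed to between 45.8 and 54.7 CPM in LiTra against 19.8 to 39.9 CPM in Co, with 1 called higher and 2 lower of 12 tested. Of 17 T cell markers, 15 were tested in gingiva: Trbc2, of the T cell receptor, rose by 0.89 ± 0.26 (adjusted p = 0.022), Cd5 fell by 0.89 ± 0.24 (adjusted p = 0.015), and the list's median was 0.42. Among 12 innate lymphoid and naive T cell genes, Il1rl1, the interleukin 33 receptor, rose by 4.23 ± 0.50 (adjusted p = 0.00023) and Thy1 by 1.41 ± 0.23 (adjusted p = 0.0012), while 2 genes fell, among them Rora by 0.79 ± 0.20 (adjusted p = 0.012), and the median of the 12 was -0.36. In the interleukin 7 axis 4 of 12 genes rose, including Il2rg, the shared receptor chain that pairs with Il7r, by 2.03 ± 0.31 (adjusted p = 0.00079), and Cish fell. The part of any cell type in the Il7r rise was not tested.

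**Figure D4:**
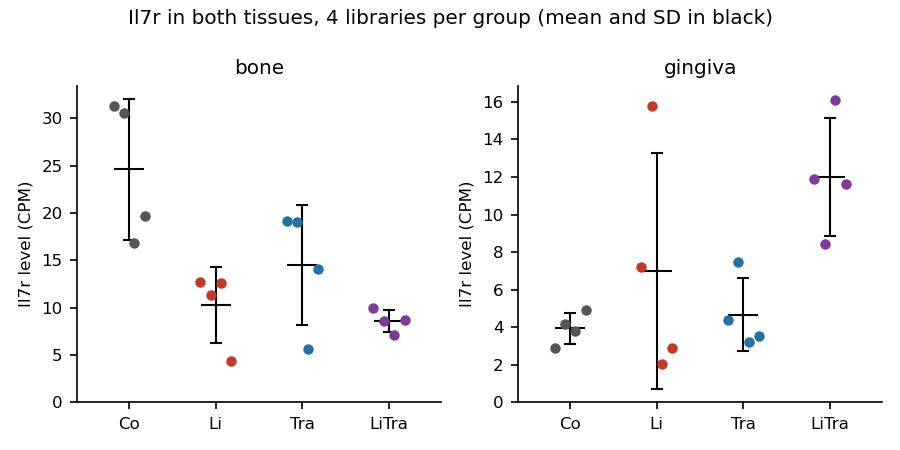
Il7r levels in CPM in bone and gingiva (separate linear axes from 0), by group, 1 point per library, with the mean and SD in black. In bone the ligature groups lie below Co (16.8 to 31.3 CPM), and in gingiva the LiTra libraries (8.42 to 16.1 CPM) lie above Co (2.89 to 4.89 CPM).

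The other gingiva comparisons called 0 of the 3 genes. Background shares were 7.49% for Li against Co, 0.0844% for LiTra against Li, and 0% for Tra against Co and for the interaction. For Tra against Co and for the interaction edgeR called 0 genes, with 1323 and 2289 under an unadjusted p of 0.05, while DESeq2 called 92 and 183 genes and limma-voom 4 and 0. Dntt changed by 4.49 ± 1.70 log2 in Li against Co (adjusted p = 0.119) and 3.59 ± 1.68 in LiTra against Co (adjusted p = 0.140). Behind these values stood 0, 0, 4 and 0 counts in Co, 71, 29, 0 and 3 in Li, and 0, 6, 22 and 28 in LiTra. Dntt passed the filter on low counts only through Li 1, Li 2, LiTra 3 and LiTra 4. Its changes against Co are therefore selected upward and are no measure of size. Vpreb1 had at most 21 counts in a gingiva library and changed by -0.33 ± 1.09 in LiTra against Co (adjusted p = 0.87).

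Li 1 was the one gingiva library with a set of precursor transcripts. It held 237 counts of Rag1, 121 of Vpreb3, 71 of Dntt, 52 of Igll1 and 27 of Rag2, while the other 15 gingiva libraries had at most 10, 5, 29, 15 and 4. Haemoglobin transcripts took 0.246% of its counts, against 0.0272 to 0.152% in the others. Its neutrophil precursor list summed to 788 CPM, the highest in gingiva, followed by Tra 2 at 471 CPM, which had 3 counts of Rag1 and 0 of Vpreb3.

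The 2 tissues were also compared directly, by testing whether the change from Co differed between bone and gingiva. For LiTra against Co, 2 of 8 differences passed on the lower side, where 6.68% of all genes tested did: Il7r at -3.12 ± 0.66 log2 (edgeR, adjusted p = 0.0038) and Dntt at -5.05 ± 1.66 (adjusted p = 0.045). Il7r was lower in 4 of 4 LiTra bone libraries and higher in 4 of 4 LiTra gingiva libraries than every Co library of the tissue. For gingiva the share of all genes set apart in this way was not computed. The Il7r difference passed in all 32 fits that left out 1 library. With library totals in place of TMM scaling neither passed. The Dntt difference was lost in 20 of those 32 fits and with the replicate number as a block. It rests on 0, 0, 4 and 0 counts in gingiva Co, so it is no measure of size. Vpreb2 and Vpreb3 could not be estimated here, having no count in Co or LiTra gingiva.

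For Li against Co, 1 of 8 differences passed, Vpreb3 at -9.81 ± 2.33 log2 (adjusted p = 0.037), where 0.683% of all genes tested were lower. This value rests on a gingiva Co group at 0 and on the 121 counts in gingiva Li 1, so it is no measure of size. Without gingiva Li 1 it was -5.50 and did not pass (adjusted p = 0.117), and the sign of the Rag1 difference changed from -4.50 ± 1.71 to 4.62 ± 2.26 and that of Igll1 from -1.62 ± 1.55 to 1.09 ± 1.51, none of them past the test. Il7r differed by -2.09 ± 0.65 (adjusted p = 0.084).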

How the data were processed

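Poly(A) RNA-seq of jaw bone and gingiva was compared in 4 groups of 4 libraries per tissue. The tables deposited by the authors hold estimated counts per gene (expected counts), made, per the submitters' processing notes, with the aligner HISAT2 (2.2.1) and the assembler StringTie (2.1.7) on build GRCm39. The notes also name Trimmomatic 0.39 for trimming, FastQC 0.11.9 for read quality and DESeq2 1.32.0, and strand use is not given in the sources used here. The table columns named CR and LiCR were taken as Tra and LiTra. Symbols came from GENCODE M21 for 52083 of 55359 genes.

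Counts were rounded and fitted per tissue over 16 libraries, or over 32 for comparisons between tissues, with edgeR 4.0.16 (filterByExpr at 10 counts and a total of 15, TMM, quasi-likelihood test) in R 4.3.3. This left 21205 genes in bone, 20143 in gingiva and 22559 for both. All 8 member genes passed in bone and 3 in gingiva. Benjamini-Hochberg adjusted p under 0.05 over all genes tested was called. The standard error is the log2 change divided by the square root of F. DESeq2 1.42.0 and limma-voom 3.58.1 with quality weights per library were alternatives. Other scalings, filters, a replicate block and each library left out were tried too. Bounds use 3 counts over the group, and they cover counting error only.

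The members and lists were chosen with earlier results of these data known. From each list up to 4 genes with the smallest p in LiTra against Co were named, with the genes of a list that had 5 or fewer called, and some single genes are not reported here. Ratios to Ms4a1 used log2(CPM + 0.5) and exact permutation tests.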

Additional observations from a re-analysis of the deposited data

Results flagged for a closer look

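A group of 4 libraries was marked where its highest or lowest library lay apart from the other 3 by more of the group's range than Dixon's critical value for 4 values. Of 54 groups examined, 10 (18.5%) were marked. Chance marks about 1 in 20 groups of normal values, a rate that does not apply to groups with most libraries at 0 counts. In bone, Dntt in Tra 3 was low at 1.88 CPM and Il7r in Li 4 was low at 4.35 CPM. Gingiva Li 1 was high for 5 genes: Rag1 at 5.92 CPM, Vpreb3 at 3.02 CPM, Igll1 at 1.30 CPM, Rag2 at 0.674 CPM and Vpreb2 at 0.0999 CPM. Small counts stood behind the other 3, namely Rag1 in gingiva Co 1 at 0.243 CPM, Rag2 in gingiva LiTra 1 at 0.101 CPM and Dntt in gingiva Co 3 at 0.0959 CPM.

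The change from Co differed between bone and gingiva, by edgeR's test of the difference, for 3 values. For LiTra these were Il7r at -3.12 log2 (adjusted p = 0.0038) and Dntt at -5.05 log2 (adjusted p = 0.045). The Dntt value rests on a gingiva Co group with 4 counts in Co 3 alone. For Li it was Vpreb3 at -9.81 log2 (adjusted p = 0.037), which rests on gingiva Li 1.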

How the results depend on the processing

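Of 2652 values recomputed for 88 results on the 8 genes, 73 lost a call, 52 gained one and 4 were counted as changing sign. A sign change counted only where either value was called or the main change was at least its standard error. The other 2523 kept their side of the threshold, and smaller changes among them could differ in sign. Vpreb1 in bone Li against Co, for example, ran from -0.56 to 0.18 log2. The 4 counted were Il7r in gingiva Li against Co with limma-voom (-0.0198 log2) and 3 tissue differences for Li. These 3 were Rag1 with limma-voom (0.75) and, without gingiva Li 1, Rag1 (4.62) and Igll1 (1.09). Over all fits leaving out 1 library, the Rag1 and Igll1 differences ran from -4.94 to 4.62 and from -2.68 to 1.09. The counts that follow are of these 8 genes, and the share of all genes called under each setting is not given beside them. The count of genes called in bone Li against Co went from 0 to 1 with CPM over 1 and to 2 with DESeq2, limma-voom or without Co 3, Tra 3 and LiTra 1. In bone LiTra against Co it went from 2 to 1 at an adjusted p under 0.01, 0 with library totals, 4 with DESeq2, 5 with limma-voom and 6 with only the groups compared. In bone LiTra against Tra it went from 1 to 0 at an adjusted p under 0.01, with library totals, without a filter or with the replicate block, and to 2 with CPM over 1, 3 with DESeq2, 7 with limma-voom and 5 without the 3 libraries. In gingiva, LiTra against Co went from 1 to 0 at an adjusted p under 0.01. LiTra against Li went from 0 to 1 with limma-voom, and LiTra against Tra from 0 to 1 with library totals, DESeq2, limma-voom, only the groups compared or the replicate block. The tissue difference for Li went from 1 to 0 at an adjusted p under 0.01, with library totals, without a filter, with limma-voom, only the groups compared or the replicate block, and to 2 with DESeq2 or without the 3 libraries. For LiTra it went from 2 to 1 at an adjusted p under 0.01, without a filter, with limma-voom or the replicate block, and to 0 with library totals. Leaving out 1 library gave 0 to 2 in bone Li against Co, 2 to 5 in LiTra against Co (5 without Tra 3), 0 to 4 in LiTra against Tra, 0 to 1 in gingiva LiTra against Co and against Tra, 0 to 2 for the tissue difference of Li and 1 to 2 for that of LiTra. The cause of these shifts was not tested. The median correlation of same-numbered deviations was -0.09 in bone, 0.02 in gingiva and 0.07 between the tissues. For different numbers it was 0.04, -0.02 and -0.01. These values cannot decide whether libraries of the same number came from the same animal. With the replicate block bone LiTra against Co still gave 2 calls. With library totals the share of higher calls was 62.3% in gingiva LiTra against Co (49.8% with TMM), 71.1% in LiTra against Tra (49.8%), and in bone LiTra against Co all 12 called genes were higher (49.0% with TMM). With DESeq2, 62.9% of bone Li calls were higher (75.8% with edgeR). Leaving out Co 3, Tra 3 and LiTra 1 together was chosen after seeing the data for the ratios to Ms4a1. That setting left too few libraries for any of the 20 permutation tests to pass correction, so it cannot decide anything about the ratios. In every alternative run 0 of 20 tests passed.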

Other observations

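In bone LiTra 1 the precursor genes did not keep one order: Igll1 had 4 counts, the lowest of its group (0.135 CPM), while Rag1 at 9.05 CPM, Dntt at 3.38 CPM and Il7r at 9.93 CPM were the highest of theirs. Of the summed level of the 8 genes in bone, Dntt made up 8.23% in Co, 15.4% in Li, 15.9% in Tra and 9.33% in LiTra.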
